A study of Mus musculus with 13 samples.

Results

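NADPH oxidases and antioxidant enzymes, which make and remove reactive oxygen species, were described across aortic RNA from 13 mice. They were chosen by name from the 54532 genes of the count table, so 10 of 54532 genes are members: the NADPH oxidase subunits Nox4, Cybb and Cyba, the superoxide dismutases Sod1, Sod2 and Sod3, the glutathione peroxidases Gpx1, Gpx3 and Gpx4, and the mitochondrial peroxiredoxin Prdx3. All 13 mice were ApoE-/- mice infused with AngII for 28 days from an age of 10 weeks, a model of aneurysm in which every aorta, controls included, carried the deletion and the infusion. Mice received adenovirus by tail vein, 5 injections each. The 7 Ad-FAM3A mice were given a virus with FLAG-tagged mouse Fam3a and mCherry behind the ubiquitous EF1A promoter, and the 6 Ad-sham mice were given that vector lacking Fam3a. The delivered gene was therefore not limited to a cell type of the aortic wall, no uninfused aorta was analysed here, and the sex of each sequenced mouse is not given in the sources used here. The question was whether these genes differed between the virus groups and how they varied from aorta to aorta.

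NADPH oxidases pass electrons from NADPH to oxygen. Nox4 is the main form in vascular smooth muscle and releases mostly hydrogen peroxide, whereas Cybb (NOX2) is the phagocyte form and makes superoxide, and Cyba (p22phox) is the membrane partner that both need. Superoxide dismutases turn superoxide into hydrogen peroxide in the cytosol (Sod1), in mitochondria (Sod2) and outside cells (Sod3), and glutathione peroxidases and peroxiredoxins then reduce peroxides. AngII is a classical stimulus of NADPH oxidases in the vessel wall.

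No member passed the test for a difference between the aortas labelled Ad-FAM3A and Ad-sham, whose Fam3a RNA levels overlapped. Nox4, Cybb, Cyba and Sod3 had higher group means with Ad-FAM3A, and Sod1, Sod2, Gpx1, Gpx3, Gpx4 and Prdx3 had lower ones, and in all 10 the values of the groups overlapped. By contrast, the level of a member differed between the lowest and highest aorta by 2.75-fold (Gpx3) to 9.11-fold (Cybb). In 3 sets, members had their highest or lowest levels in the same aortas: Sod1, Sod2, Gpx4 and Prdx3 in aortas with high adipocyte markers, Cybb and Cyba in aortas with high macrophage markers, and Nox4 and Sod3 lowest in Ad-FAM3A6, the aorta with the lowest smooth muscle, fibroblast and endothelial markers. RNA came from aortic tissue with its cell types mixed, so fewer cells of a type and less RNA per cell cannot be told apart.

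Total counts were 15588507 to 19797407 per Ad-sham aorta and 14481179 to 16576977 per Ad-FAM3A aorta, and each member had at least 291 counts in every aorta. Fam3a itself was at 24.4 ± 4.27 CPM (counts scaled to library size, mean ± SD, n = 6) in Ad-sham and 24.0 ± 4.64 CPM (n = 7) in Ad-FAM3A aortas, a log2 fold change of -0.03 ± 0.16 (SE, 95% interval -0.37 to 0.31), with overlapping groups (two-sided exact permutation p = 0.835). Fam3a RNA thus did not show the overexpression that the Ad-FAM3A label names, and every difference given is between aortas so labelled. Smooth muscle markers were present in every aorta, with summed levels of 2251 to 18191 CPM. Markers of other tissues stood apart in some aortas. Summed B cell markers were 10802 CPM for Ad-FAM3A6 and 3250 CPM for Ad-FAM3A7, whereas the other 11 had 174 CPM or less, and summed kidney markers exceeded 10 times the median in Ad-sham3, Ad-sham5, Ad-sham6 and Ad-FAM3A3, although the kidney genes Umod, Slc12a1, Slc22a6 and Slc5a2 were at 0 in most aortas. By the same criterion Ad-sham6, the Ad-sham aorta with the most Nox4, stood apart in skeletal muscle markers at 178 CPM, and Ad-sham4 and Ad-FAM3A6 in T cell markers.

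The promoters of 3 of the 4 members with the same 4 highest aortas are shown, and that overlap is why they were chosen. Each is the 250 bases before the gene's start, 5′ to 3′, from RefSeq on GRCm38.p6: Sod1 at chr16:90220512-90220761 on the plus strand, Sod2 at chr17:13007589-13007838 on the plus strand and Prdx3 at chr19:60874539-60874788 on the minus strand. Capitals mark the GC box GGGCGG on either strand and, in Sod1, also the antioxidant response element core TGACNNNGC, which lies on the minus strand as GCGTGGTCA.
Sod1: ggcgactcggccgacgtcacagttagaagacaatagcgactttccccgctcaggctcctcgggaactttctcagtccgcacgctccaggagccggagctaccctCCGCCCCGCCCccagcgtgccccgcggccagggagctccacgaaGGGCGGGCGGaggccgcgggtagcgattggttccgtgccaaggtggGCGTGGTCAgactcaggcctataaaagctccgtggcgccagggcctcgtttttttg
Sod2: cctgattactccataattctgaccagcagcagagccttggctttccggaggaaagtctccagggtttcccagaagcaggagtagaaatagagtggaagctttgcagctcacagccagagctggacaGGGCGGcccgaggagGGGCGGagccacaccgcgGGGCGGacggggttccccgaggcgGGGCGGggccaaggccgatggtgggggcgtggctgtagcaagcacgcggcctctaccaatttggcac
Prdx3: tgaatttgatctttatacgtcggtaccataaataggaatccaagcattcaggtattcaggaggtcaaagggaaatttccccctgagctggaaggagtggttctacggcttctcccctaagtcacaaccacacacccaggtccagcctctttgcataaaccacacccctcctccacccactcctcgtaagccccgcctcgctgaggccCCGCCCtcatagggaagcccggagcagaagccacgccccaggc
Sod1 and Sod2 each held 4 GC boxes, in Sod1 as 2 overlapping pairs, and Prdx3 held 1. GC boxes were found in 32.7% of the 32817 RefSeq promoter windows of this length and the antioxidant response element core in 10.2%. An NRF1 site (in 3.73% of windows), an ERR element (TNAAGGTCA, in 1.14%) and a CArG box (in 1.47%) were searched on both strands and were not in these 3 windows. Gpx4, the remaining member of the set, has 4 RefSeq windows and is not printed, because the 2 that hold the most motifs include 77 and 144 untranslated bases. Those 2 windows overlap and hold 1 NRF1 site, the same match in both, and 2 GC boxes each, with no ERR element or CArG box. In the annotation the windows lie upstream of the gene apart from 8 exonic bases of Sod1 and 18 of Prdx3, and the Sod2 window lies within the annotated span of Sod2, with 22 exonic bases. RefSeq windows matched 9 of the 10 members, and Sod3 had none.

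The members' abundance was compared as RPKM, CPM per kilobase of gene length. The lengths are those deposited with the counts, such as 3970 bases for Sod1, 10008 for Sod2 and 8471 for Nox4. Which transcripts the aortas carried was not tested, so levels and their order between genes rest on these lengths. Gpx3, the secreted glutathione peroxidase of plasma, stood highest with a mean of 706 ± 231 RPKM (SD, n = 13 aortas), followed by cytosolic Gpx1 at 452 ± 145 RPKM and Gpx4, which reduces lipid hydroperoxides in membranes, at 324 ± 160 RPKM. Sod3, the extracellular dismutase bound to matrix, was at 239 ± 83.1 RPKM. Prdx3 was at 112 ± 44.2, Cyba at 57.2 ± 32.2, Sod1 at 56.2 ± 27.2, Nox4 at 29.4 ± 16.3, Sod2 at 23.3 ± 10.6 and Cybb at 9.81 RPKM. This order was kept between Gpx3 and Gpx1 in 13 of 13 aortas, and in 10 to 12 of 13 for Gpx1 over Gpx4, Sod3 over Prdx3, Prdx3 over Cyba, Sod1 over Nox4 and Sod2 over Cybb. The neighbours Gpx4 and Sod3 (7 of 13 aortas), Cyba and Sod1 (8 of 13), and Nox4 and Sod2 (8 of 13) were not separated beyond their spread.

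**Figure D1:**
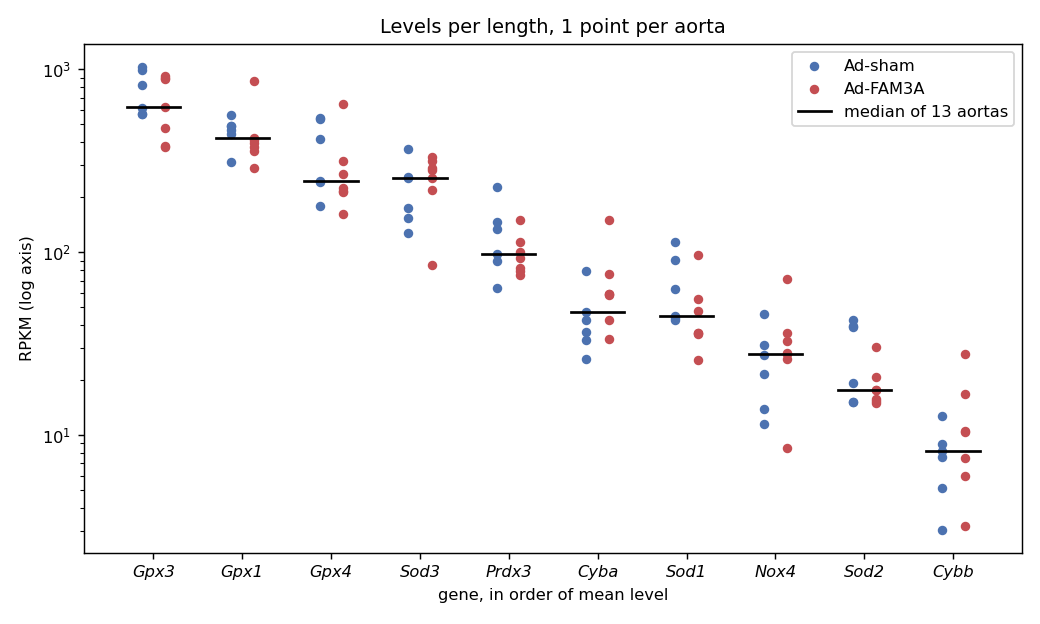
Level of each gene per length in RPKM (log axis) in the 13 aortas, in order of the mean; points are aortas, blue for Ad-sham and red for Ad-FAM3A, and the bar is the median of all 13. Gpx3 is highest with a median of 619 RPKM and Cybb lowest with 8.13 RPKM, and red and blue points overlap in every gene.

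Within families the balance also shifted between aortas. Extracellular Sod3 made up 68.4 ± 16.1% (SD, n = 6) of the summed superoxide dismutase RPKM in Ad-sham and 78.1 ± 8.85% (n = 7) in Ad-FAM3A aortas, and its share was lowest in Ad-sham3 (49.0%) and highest in Ad-FAM3A5 (88.5%). Sod3 exceeded Sod1 per length in 13 of 13 aortas, and this and the shares rest on the deposited gene lengths. Gpx3 made up 48.4 ± 3.33% of the 3 glutathione peroxidases in Ad-sham and 47.0 ± 10.4% in Ad-FAM3A aortas, so the peroxidase mix had close means in the groups. Nox4 exceeded Cybb per length in 12 of 13 aortas. Ad-FAM3A6, the aorta with the highest B cell markers, was the exception with a Nox4 to Cybb ratio of 0.307, whereas Ad-FAM3A5 had a ratio of 11.9.

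For the comparison of the virus groups, edgeR's quasi-likelihood test after Benjamini-Hochberg adjustment was applied to the 15811 genes that passed a filter on low counts, and all 10 members passed it. At an adjusted p under 0.05 it called 0 of the 10 members, against 0 of 15811 genes (0%). At an unadjusted p under 0.05 it had 0 of 10 members, against 934 genes (5.91%, with 2.98% higher and 2.93% lower). DESeq2 with its defaults called 10 genes in the table and no member, and limma-voom called 0 genes. Groups that did not overlap in CPM were found for 0 of 10 members and for 15 genes (0.0949%). The members' median log2 fold change was -0.15, with 6 of 10 below 0, beside a median of 0.00319 and 49.6% below 0 over all genes tested.

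**Figure D2:**
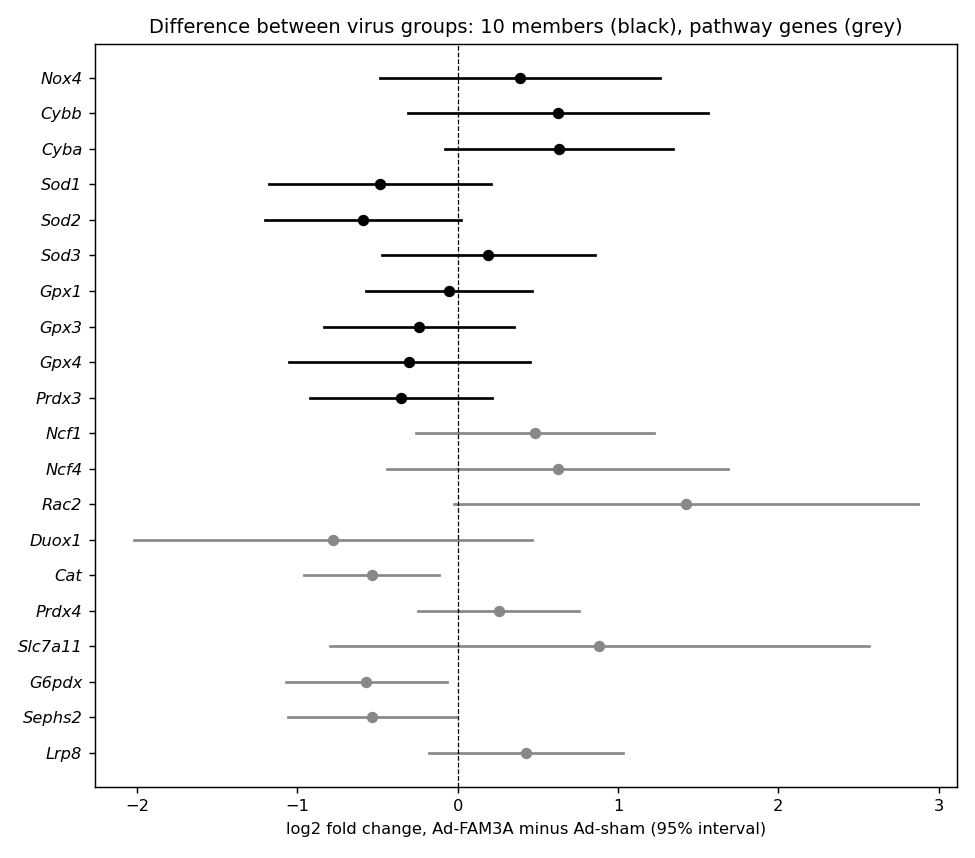
Log2 fold change, Ad-FAM3A minus Ad-sham, with its 95% interval for the 10 members (black) and for the pathway genes named in the text (grey); the dashed line is 0. The interval of every member includes 0, from Sod2 at -0.59 to Cyba at 0.63, and that of Rac2, at 1.43, reaches furthest above 0.

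Nox4 (ENSMUSG00000030562, chromosome 7, 87246096 to 87398710 of GRCm38) was at 97.2 CPM in the lowest, 208 in the median and 388 in the highest Ad-sham aorta, and at 72.1, 239 and 606 CPM in Ad-FAM3A aortas. The Ad-FAM3A group held both the highest aorta, Ad-FAM3A5, and the lowest, Ad-FAM3A6, so its range enclosed that of Ad-sham. Its log2 fold change was 0.39 ± 0.41 (SE, 95% interval -0.49 to 1.26, two-sided exact permutation p = 0.502), and it came to 0.079 when Ad-FAM3A5 was left out, 0.64 when Ad-sham6 was and 0.63 when both B-cell-high aortas were. As a covariate, the summed adipocyte markers gave 0.029 and the summed smooth muscle markers 0.095.

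Cybb (ENSMUSG00000015340, chromosome X, 9435252 to 9487771) was at 17.6, 45.6 and 74.0 CPM in the lowest, median and highest Ad-sham aortas and at 18.4, 60.6 and 161 CPM in Ad-FAM3A aortas. Only Ad-FAM3A6 and Ad-FAM3A7, the aortas with high B cell markers, lay above the Ad-sham range. The log2 fold change was 0.62 ± 0.44 (SE, 95% interval -0.31 to 1.56, two-sided exact permutation p = 0.369). Without these 2 aortas it was -0.017, and without Ad-FAM3A6 alone it was 0.25. B cell markers fell into separate clusters of 2 and 11 aortas, so no pooled correlation of Cybb with their sum is given, and among the 11 r was 0.50.

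Cyba (ENSMUSG00000006519, chromosome 8, 122424776 to 122432930) was at 27.0, 41.3 and 82.1 CPM in the lowest, median and highest Ad-sham aortas and at 34.9, 61.0 and 155 CPM with Ad-FAM3A. Of 7 Ad-FAM3A aortas, 6 lay above the Ad-sham median, and only Ad-FAM3A2 lay above the Ad-sham range. The log2 fold change was 0.63 ± 0.33 (SE, 95% interval -0.08 to 1.34, two-sided exact permutation p = 0.128), with 0.33 when Ad-FAM3A2 was left out and 0.23 with summed macrophage markers as a covariate. Cyba lies within the annotated span of Gm20388, a gene on the other strand with 0 counts.

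The cytosolic dismutase Sod1 (ENSMUSG00000022982, chromosome 16, 90220754 to 90226329) was at 169, 214 and 454 CPM in the lowest, median and highest Ad-sham aortas and at 102, 143 and 382 CPM in Ad-FAM3A aortas. Its log2 fold change was -0.48 ± 0.32 (SE, 95% interval -1.18 to 0.21, two-sided exact permutation p = 0.166). In all, 4 Ad-FAM3A aortas were below every Ad-sham aorta, while Ad-FAM3A2 was above 5 of the 6. It came to -0.74 when Ad-FAM3A2 was left out and to -0.26 when Ad-sham2 was, with no call in either case. The 3′ end of Sod1 overlaps Scaf4 on the other strand, which had 285 to 769 counts, and whether reads were counted by strand is not given in the sources used here.

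Sod2 (ENSMUSG00000006818, chromosome 17, 13006846 to 13040063), the manganese dismutase of mitochondria, had the lowest unadjusted p of the members. It was at 151, 292 and 428 CPM in the lowest, median and highest Ad-sham aortas and at 150, 176 and 303 CPM in Ad-FAM3A aortas. Ad-sham aortas fell apart into 3 at 392 CPM or more and 3 at 192 CPM or less, and the Ad-FAM3A aortas other than Ad-FAM3A2 were at 207 CPM or less. The log2 fold change was -0.59 ± 0.29 (SE, 95% interval -1.21 to 0.02), with an adjusted p of 0.810 by edgeR's quasi-likelihood test after Benjamini-Hochberg adjustment and a two-sided exact permutation p of 0.126, and 6 of 7 Ad-FAM3A aortas were below the Ad-sham median. Without the 4 aortas high in kidney markers it was -0.74, again with no call.

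The mitochondrial peroxiredoxin Prdx3 (ENSMUSG00000024997, chromosome 19, 60864051 to 60874556) was at 93.6, 171 and 337 CPM in the lowest, median and highest Ad-sham aortas and at 111, 138 and 221 CPM with Ad-FAM3A. All 7 Ad-FAM3A aortas lay inside the Ad-sham range, whose upper end was Ad-sham1 alone. The log2 fold change was -0.35 ± 0.27 (SE, two-sided exact permutation p = 0.362) and was -0.10 without Ad-sham1 and -0.56 without the 4 aortas high in kidney markers.

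Gpx4 (ENSMUSG00000075706, chromosome 10, 80047166 to 80056439) was at 308, 573 and 936 CPM in the lowest, median and highest Ad-sham aortas and at 280, 386 and 1122 CPM with Ad-FAM3A. Its highest value was in Ad-FAM3A2, and the log2 fold change of -0.30 ± 0.35 (SE, two-sided exact permutation p = 0.399) became -0.62 without that aorta and -0.15 without Ad-sham3 or without Ad-sham2. The pseudogene Gpx4-ps2 had 714 to 3001 counts, 13.06 to 19.97% of the Gpx4 count, so reads may be split between the copies. How reads matching both copies were counted is not given in the sources used here. The Gpx4 level is therefore uncertain by an amount that is not known. The share of Gpx4-ps2 was 13.06 to 19.45% in Ad-sham and 13.48 to 19.97% in Ad-FAM3A aortas. It was above 15% in 6 of 7 Ad-FAM3A aortas and in 1 of 6 Ad-sham aortas. That cut was not fixed beforehand, and the difference was not tested.

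Sod3 (ENSMUSG00000072941, chromosome 5, 52363791 to 52371418), Gpx1 (ENSMUSG00000063856, chromosome 9, 108338903 to 108340343) and Gpx3 (ENSMUSG00000018339, chromosome 11, 54902453 to 54910377) had the smallest differences. The mean level of Sod3 was 831 ± 328 CPM (SD) over the 6 Ad-sham aortas and 949 ± 310 CPM over the 7 Ad-FAM3A aortas, a log2 fold change of 0.19 ± 0.31 (SE). Its lowest level, 318 CPM, was in Ad-FAM3A6, and the fold change ranged from 0.072 without Ad-sham3 to 0.39 without Ad-sham4, with 0.41 when both B-cell-high aortas were left out. Gpx1 was at 664 ± 120 and 640 ± 273 CPM with a log2 fold change of -0.05 ± 0.24 (SE), and Ad-FAM3A2 stood apart at 1242 CPM. Gpx3 was at 1394 ± 384 and 1181 ± 450 CPM with a log2 fold change of -0.24 ± 0.28 (SE), which was -0.13 without Ad-FAM3A5 and -0.39 without the aortas high in kidney markers. The two-sided exact permutation p was 0.636 for Sod3, 0.659 for Gpx1 and 0.309 for Gpx3. Gpx3 is also made by the kidney. The 4 aortas high in kidney markers had 1037 to 1866 CPM of it and the other 9 had 679 to 1809 CPM, which overlap, and no pooled correlation is given because the kidney sums fell into these separate clusters.

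**Figure D3:**
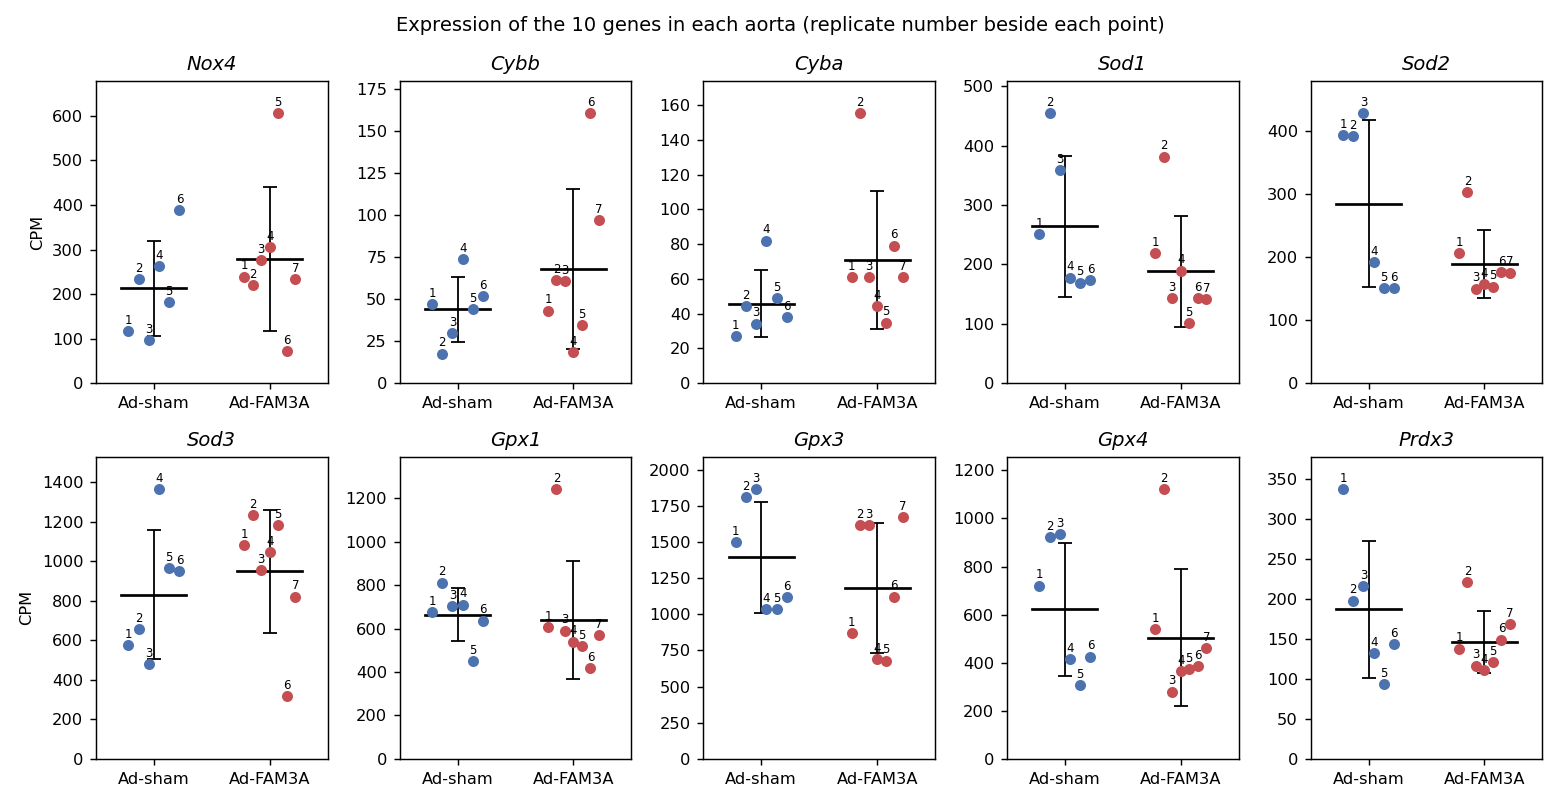
CPM of each member in every aorta on linear axes that start at 0, with 6 Ad-sham (blue) and 7 Ad-FAM3A (red) aortas, the replicate number beside each point, and the mean with its SD in black. Groups overlap in all 10 panels, and Ad-sham1, Ad-sham2, Ad-sham3 and Ad-FAM3A2 are the highest points for Sod1, Sod2, Gpx4 and Prdx3.

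Sod1, Sod2, Gpx4 and Prdx3 had the same 4 highest aortas, Ad-sham1, Ad-sham2, Ad-sham3 and Ad-FAM3A2. In these Sod2 was at 303 to 428 CPM against at most 207 CPM in the other 9, and Gpx4 at 721 to 1122 CPM against at most 541 CPM. Sod1 was at 251 to 454 CPM against at most 219 CPM, and Prdx3 at 198 to 337 CPM against at most 169 CPM. The group difference thus set 3 such aortas of 6 against 1 of 7.

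The same 4 aortas had the highest brown adipocyte markers, with sums of 2475 to 3952 CPM against 643 to 1364 CPM in the other 9, and the highest adipocyte markers, with sums of 10449 to 17112 CPM against 3922 to 8890 CPM. Ucp1, which uncouples respiration in brown fat, was at 1049 to 2193 CPM there and at 230 to 633 CPM elsewhere, and no marker of either list was at 0 in most aortas. All 8 brown adipocyte and all 10 adipocyte markers had a log2 fold change below 0 with Ad-FAM3A, and edgeR called none of them, with 3 and 4 at an unadjusted p under 0.05. Summed adipocyte markers were 5839 to 17112 CPM in Ad-sham and 3922 to 10449 CPM in Ad-FAM3A aortas.

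With the summed adipocyte markers as a covariate the log2 fold change was 0.13 for Sod1, 0.026 for Sod2, 0.33 for Gpx4, 0.033 for Prdx3, 0.19 for Gpx1 and 0.051 for Gpx3, so all 6 members with lower means with Ad-FAM3A turned to a value above 0, and none was called. The members with higher means stayed above 0, with Nox4 at 0.029, Cybb at 0.28, Sod3 at 0.082 and Cyba at 0.70. With the brown adipocyte markers in its place Sod2 was at -0.17, Sod1 at -0.14 and Gpx4 at 0.11. These markers and the 4 members moved together, and the part of fat tissue in the result was not tested beyond these values.

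Sod1 followed the adipocyte sum across all 13 aortas (r = 0.95, Spearman rho = 0.91, permutation p = 1e-05, the smallest the permutations can give, and 5e-05, adjusted p = 0.0014 and 0.00653 over 140 relations of members with marker lists). The relation held within each group (r = 0.98 in Ad-sham and 0.93 in Ad-FAM3A) and without Ad-sham2 and Ad-sham3, the 2 aortas farthest from the median (r = 0.91). Among the 9 aortas outside the 4 high ones r was 0.90 (exact permutation p = 0.00108, adjusted p = 0.0217 over 20 relations) and rho was 0.77 (exact permutation p = 0.0214, adjusted p = 0.428), and r was 0.72 without Ad-FAM3A5 and Ad-FAM3A1. Over all 13 the adipocyte sum also had r = 0.91 with Sod2 (permutation p = 7e-05, adjusted p = 0.00245, rho = 0.81, permutation p = 0.00138, adjusted p = 0.0346) and r = 0.86 with Gpx4 (permutation p = 0.00029, adjusted p = 0.0062, rho = 0.73, permutation p = 0.00607, adjusted p = 0.0702), and without Ad-sham2 and Ad-sham3 these r were 0.82 and 0.79. Among the 9 aortas they were 0.59 and 0.55 (exact permutation p = 0.0992 and 0.124, adjusted p = 0.496 for both), so these relations were not shown outside the 4 high aortas. Prdx3 had r = 0.67 over all 13 (permutation p = 0.0124, adjusted p = 0.0964, rho = 0.55, permutation p = 0.0525, adjusted p = 0.230). Brown adipocyte markers fell into separate clusters of 4 and 9 aortas, so no pooled correlation is given with them. Among the 9, Gpx4 had r = 0.75 and rho = 0.60 with the brown adipocyte sum (exact permutation p = 0.0204 and 0.0968, the lower of them 0.204 when adjusted over 20 relations), and r was 0.24 without Ad-sham5 and Ad-FAM3A3. Sod2 and Prdx3 had r = 0.46 and 0.41 there (exact permutation p = 0.203 and 0.277), so below the 4 high aortas no relation of these 3 genes with brown adipocyte markers was shown.

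**Figure D4:**
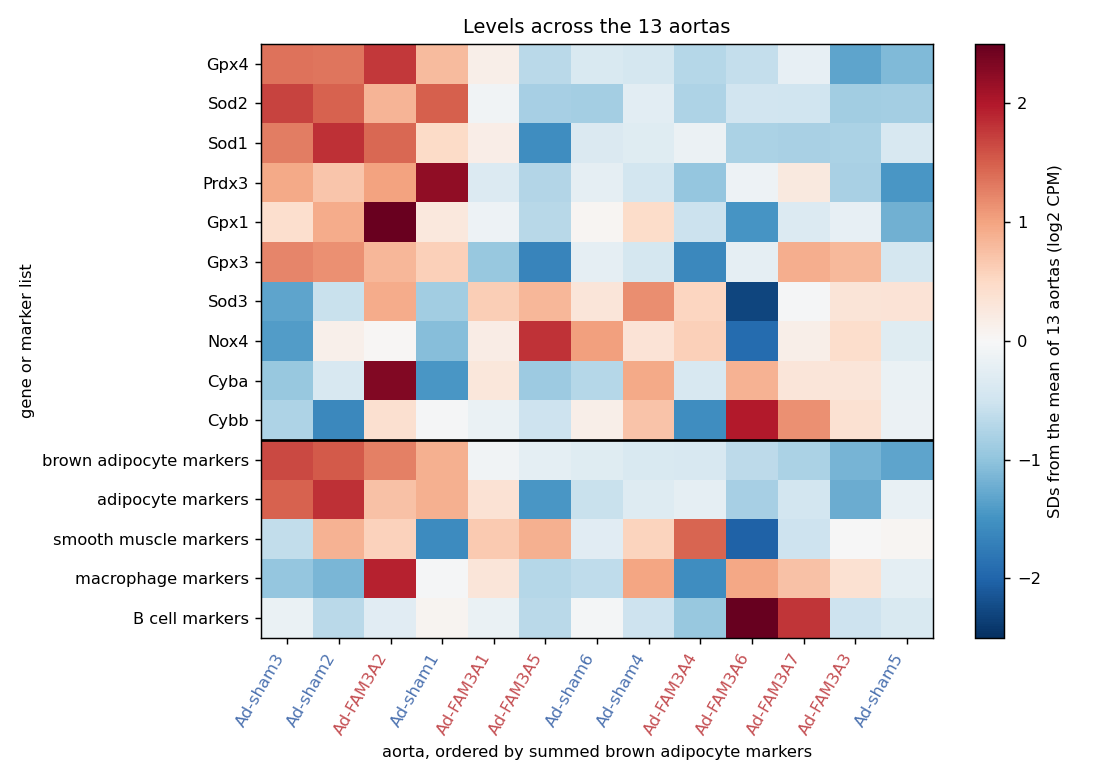
Log2 CPM of the 10 members and of 5 summed marker lists in the 13 aortas, each row centred on its mean and divided by its SD (red high, blue low), with aortas ordered by summed brown adipocyte markers and labelled blue for Ad-sham and red for Ad-FAM3A. The 4 columns on the left are high in Gpx4, Sod2, Sod1 and Prdx3, and the column of Ad-FAM3A6 is low in Sod3 and Nox4 and high in Cybb.

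Cybb and Cyba shared their 4 highest aortas, Ad-FAM3A2, Ad-FAM3A6, Ad-FAM3A7 and Ad-sham4, and these also had the highest macrophage markers, with sums of 2279 to 4178 CPM against at most 1910 CPM in the others. The 4 were not set apart in the genes themselves: Cybb was at 61.5 CPM in the lowest of them and 60.6 CPM in Ad-FAM3A3, the next, and Cyba at 61.3 and 61.0 CPM in the same order. Cybb followed the macrophage sum with r = 0.80 (permutation p = 0.00075, adjusted p = 0.0117 over 140 relations) and rho = 0.90 (permutation p = 0.00011, adjusted p = 0.00653), and r was 0.88 without Ad-FAM3A2 and Ad-FAM3A4. Within groups r was 0.85 in Ad-sham and 0.76 in Ad-FAM3A. Cyba followed it with r = 0.82 (permutation p = 0.00046, adjusted p = 0.00805) and rho = 0.80 (permutation p = 0.00153, adjusted p = 0.0346), and r was 0.78 without the same aortas, 0.60 within Ad-sham and 0.89 within Ad-FAM3A. With the macrophage sum as a covariate the log2 fold change of Cybb between the groups was 0.057. The macrophage markers themselves went both ways: 4 of 10 had a log2 fold change above 0 with Ad-FAM3A, with a median of -0.03, and their sums were 886 to 2613 CPM in Ad-sham and 721 to 4178 CPM in Ad-FAM3A aortas.

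Cybb also followed the T cell sum, which reached 272 CPM in Ad-sham4 and 586 CPM in Ad-FAM3A6 (r = 0.85, permutation p = 4e-05, adjusted p = 0.00187, rho = 0.89, permutation p = 0.00014, adjusted p = 0.00653, and r = 0.84 without Ad-FAM3A6 and Ad-sham4). The highest aorta was not the same for both subunits. Cybb peaked in Ad-FAM3A6 at 161 CPM, where Cyba was at 79.2 CPM, and Cyba peaked in Ad-FAM3A2 at 155 CPM, where Cybb was at 61.5 CPM. Per length Cyba exceeded Cybb in 13 of 13 aortas, by 2.75-fold in Ad-FAM3A6 and by 14.1-fold in Ad-FAM3A2.

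Nox4 and Sod3 were both lowest in Ad-FAM3A6, at 72.1 and 318 CPM, the aorta with the lowest smooth muscle sum of 2251 CPM. It also had the lowest fibroblast sum, 3441 CPM, and the lowest endothelial sum, 1026 CPM, and the parts of these cell types cannot be told apart there. Ad-FAM3A2, next lowest in fibroblast markers at 5435 CPM, had Sod3 at 1235 CPM, below Ad-sham4 alone, and Nox4 at 221 CPM. Ad-sham1 and Ad-sham3, the next lowest in smooth muscle markers at 2933 and 5213 CPM, were next in Nox4 at 117 and 97.2 CPM and in Sod3 at 576 and 478 CPM. Other aortas went against the smooth muscle order. Ad-sham6, at 6367 CPM of these markers, had Nox4 at 388 CPM, below Ad-FAM3A5 alone. Ad-sham2, at 12755 CPM, had Sod3 at only 656 CPM. Over 13 aortas the smooth muscle sum had r = 0.75 with Nox4 (permutation p = 0.0034, adjusted p = 0.034, rho = 0.63, permutation p = 0.0248, adjusted p = 0.183) and r = 0.78 with Sod3 (permutation p = 0.00208, adjusted p = 0.0243, rho = 0.71, permutation p = 0.00848, adjusted p = 0.0834). Without Ad-FAM3A6 and Ad-sham1 these r were 0.47 and 0.51, so the relations rest in part on those aortas. Within groups r for Nox4 was 0.59 in Ad-sham and 0.82 in Ad-FAM3A, and for Sod3 it was 0.52 and 0.91. All 8 smooth muscle markers had a log2 fold change above 0 with Ad-FAM3A and none was called (1 at an unadjusted p under 0.05), and with their sum as a covariate the log2 fold change of Sod3 was -0.019. With the endothelial sum Nox4 had r = 0.68 (permutation p = 0.0101, adjusted p = 0.0832) and rho = 0.78 (permutation p = 0.00239, adjusted p = 0.0418), and r was 0.65 without Ad-sham6 and Ad-FAM3A4. With the fibroblast sum r was 0.61 for Nox4 (permutation p = 0.0258, adjusted p = 0.158, rho = 0.54, permutation p = 0.0580, adjusted p = 0.242) and 0.69 for Sod3 (permutation p = 0.00889, adjusted p = 0.0778, rho = 0.47, permutation p = 0.110, adjusted p = 0.331). Sod3 had r = 0.72 with the endothelial sum (permutation p = 0.00478, adjusted p = 0.0446, rho = 0.73, permutation p = 0.00635, adjusted p = 0.0702), and r was 0.87 without Ad-sham6 and Ad-FAM3A4. No relation of a member with the neutrophil, fibroblast, liver, cardiac muscle, skeletal muscle or sympathetic neuron list had an adjusted p under 0.05 by r or rho.

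**Figure D5:**
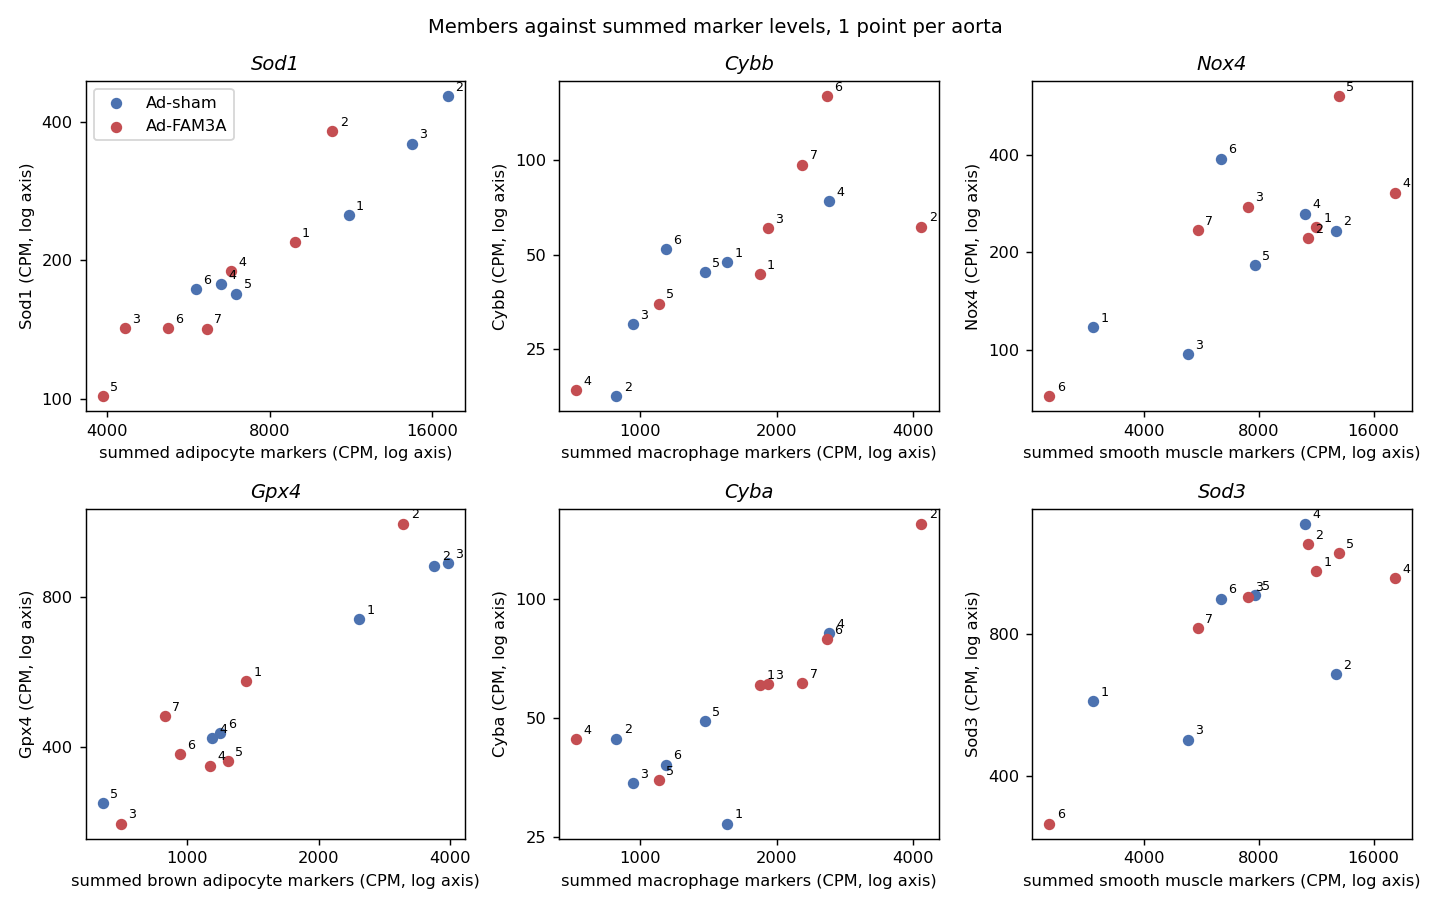
CPM of 6 members against the summed CPM of a marker list in the same aorta, both on log axes, with 1 point per aorta, blue for Ad-sham and red for Ad-FAM3A, and the replicate number beside it. Sod1 rises along the adipocyte sum, Gpx4 separates 4 aortas from 9, Cybb and Cyba rise along the macrophage sum, and the lowest Nox4 and Sod3 points are in Ad-FAM3A6.

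The genes with the pattern most like each member, by Pearson correlation of log2 CPM over the 13 aortas and chosen among all genes tested, are given as a description. For Nox4 they were Golim4, Pde5a and Abcc9 (r = 0.97, 0.97 and 0.96), and for Cybb they were Naip2, Nckap1l and Cd180 (0.98 for each). Cyba had looser neighbours, Gpr157, Psap and Uap1l1 (0.90 for each). Nearest to Sod1 were Cox6b1, Ndufb7 and Mrpl10 (0.98 for each), to Gpx4 Sdhc, Ndufb11 and Uqcr10 (0.98 for each), to Sod2 Dhrs7b, Ldha and Mrps27 (0.97 for each), and to Prdx3 Hibadh, Phyh and Immt (0.98, 0.97 and 0.97). Sod3 was nearest to Pam, Htra1 and Sfrp1 (0.98, 0.97 and 0.97), Gpx1 to Pcbd2, Lamtor5 and Txndc17 (0.92 for each), and Gpx3 to 1810019D21Rik, Car2 and Calr3 (0.91, 0.90 and 0.89). These points share their libraries and the aortas that stand apart.

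A further 50 genes of the pathway were examined in 4 lists, of which 45 passed the filter. Against the background of 0% edgeR called 0 of 45, and 3 of 45 had an unadjusted p under 0.05, all lower with Ad-FAM3A, beside 2.93% of all genes tested in that direction. Of the 45, 19 were above 0 and 26 below, and with the adipocyte sum as a covariate 30 were above 0 and 15 below, with 0 called. The part of fat tissue in these values was not tested further. Of the other NADPH oxidase genes, 5 of 8 tested were above 0 and 3 below. Nox1, Nox3, Noxo1 and Noxa1, the alternative catalytic subunits and their organizer and activator, did not pass the filter, with at most 5, 0, 24 and 3 counts in an aorta. Ncf1 and Ncf4, cytosolic partners of the phagocyte oxidase named here after their values were seen, had log2 fold changes of 0.48 ± 0.35 (SE) and 0.62 ± 0.50, and each was 0.17 without Ad-FAM3A6. Rac2, the small GTPase of blood cells that activates the same oxidase, was at 23.5 ± 11.7 CPM (SD, n = 6) and 63.1 ± 88.8 CPM (n = 7), a log2 fold change of 1.43 ± 0.68 (SE) that was 0.39 without Ad-FAM3A6 and -0.15 without both B-cell-high aortas. The lowest of the list was Duox1, a dual oxidase, at -0.78 ± 0.58, which had only 0 to 34 counts per aorta.

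Among the other peroxidases, catalase and the thioredoxin system, 13 of 16 tested genes were below 0 and 3 above. Catalase (Cat), which breaks down hydrogen peroxide in peroxisomes, had a mean of 495 ± 141 CPM (SD) over the 6 Ad-sham aortas and 341 ± 53.2 CPM over the 7 Ad-FAM3A aortas, a log2 fold change of -0.54 ± 0.20 (SE, two-sided exact permutation p = 0.0297), with 7 of 7 Ad-FAM3A aortas below the Ad-sham median. It was highest in Ad-sham1, Ad-sham2 and Ad-sham3, at 605 to 635 CPM, aortas high in adipocyte markers, and at most 462 CPM in the others, with 393 CPM in the adipocyte-high Ad-FAM3A2, and its log2 fold change was -0.21 with the adipocyte sum and -0.31 with the brown adipocyte sum as a covariate. Its adjusted p was 0.810 by edgeR's quasi-likelihood test after Benjamini-Hochberg adjustment. Prdx4, the peroxiredoxin of the endoplasmic reticulum, was highest in the list at 0.26 ± 0.23. It was at 0.097 without Ad-FAM3A2, at 0.36 without Ad-FAM3A6 and at most 0.46 under the other alternatives.

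In the list of glutathione and NRF2 target genes 7 of 14 were above 0 and 7 below. G6pdx, the enzyme that makes NADPH in the pentose phosphate pathway, was lowest at -0.57 ± 0.23 (SE) with CPM of 107 ± 42.5 and 72.1 ± 14.1. Slc7a11, the cystine importer, was highest at 0.88 ± 0.79. It was 0.34 without Ad-FAM3A6, 1.62 without Ad-sham4 and 0.050 at the lowest under the other alternatives. G6pdx was at 142 to 151 CPM in Ad-sham1, Ad-sham2 and Ad-sham3 and at most 96.9 CPM elsewhere, with 82.3 CPM in Ad-FAM3A2, and its log2 fold change was -0.065 with the adipocyte sum as a covariate. For the synthesis of selenoproteins, the class to which Gpx1, Gpx3 and Gpx4 belong, 4 of 7 genes were above 0 and 3 below. Sephs2, which makes the selenium donor, was lowest at -0.54 ± 0.24 (-0.13 with the adipocyte sum as a covariate). Lrp8, a receptor that takes up selenoprotein P, was highest at 0.43 ± 0.28 (0.062 to 0.57 under the alternatives). Sephs2 was at 80.4 to 110 CPM in Ad-sham1, Ad-sham2, Ad-sham3 and Ad-FAM3A2, and at most 61.4 CPM elsewhere. G6pdx and Sephs2 had a two-sided exact permutation p of 0.0886 and 0.0880, and an adjusted p of 0.810 by edgeR's quasi-likelihood test after Benjamini-Hochberg adjustment.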

How the data were processed

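Aortic tissue was sequenced as 1 library per mouse, 6 Ad-sham and 7 Ad-FAM3A, grouped by their labels. The paper calls the sequenced material aneurysm tissue and does not say whether the whole aorta was used. The authors aligned reads to GRCm38 with Hisat2 and deposited whole-number counts per gene from FeatureCounts, not normalized. The annotation release and strand setting are not given in the sources used here. The authors' FPKM means per group were not used for results. A total of 0 columns of samples was left unused.

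Counts were normalized by TMM and filtered by filterByExpr in edgeR 4.0.16 (R 4.3.3), with edgeR's quasi-likelihood test after Benjamini-Hochberg adjustment over 15811 genes between the groups, called at an adjusted p under 0.05. The SE was taken from the log2 fold change and the F statistic, and intervals are t-based. Log2 CPM used a prior count of 2. Single values were compared by exact permutation over 1716 splits, with a smallest p of 0.000583. Relations with 14 marker lists used 100000 permutations on log2 CPM. P-values measure the spread between these aortas. A count of 0 allows 3 counts, 0.140 to 0.221 CPM, for counting error only. Of the tests, only edgeR's quasi-likelihood test was tried on simulated data.

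The alternatives were DESeq2 1.42.0, limma-voom (limma 3.58.1), other normalizations and filters, the replicate block, marker covariates and left-out aortas. The alternatives without B-cell-high aortas and with brown adipocyte or smooth muscle covariates were chosen after seeing the data. The members and lists were chosen with earlier results of these data known. The text names all members, Fam3a, in each pathway list the highest and lowest fold change and each gene at an unadjusted p under 0.05, and the 3 genes most like each member. Ncf1 and Ncf4 were named in addition, after their values were seen. The values of 1 gene are not reported here.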

Additional observations from a re-analysis of the deposited data

Results flagged for a closer look

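In 42 groups, the Ad-sham and Ad-FAM3A values of 21 named genes, 3 held a sample far from the others by Dixon's criterion, where chance gives about 1 in 20 groups, or 2.1 of 42. Sod3 was low in Ad-FAM3A6 at 8.31 log2 CPM, against 9.68 to 10.27 in the other Ad-FAM3A aortas. Gpx1 was high in Ad-FAM3A2 at 10.28 log2 CPM, against 8.70 to 9.24. Duox1 had 0 counts in Ad-FAM3A2 and 8 to 24 counts in the other Ad-FAM3A aortas, so its -3.02 log2 CPM there, against -0.51 to 0.64, is set by the prior count and is no measured level.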

How the results depend on the processing

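No member was called at an adjusted p under 0.05 under any alternative run. At an unadjusted p under 0.05 there were 0 members with all 13 aortas, and at most 2 under an alternative (without Ad-sham4, and without Ad-FAM3A2). Over all genes, DESeq2 with its defaults called 10 and an unadjusted p gave 934, and for the pathway genes it gave 3, against 0 in each by edgeR's adjusted test. Of 565 values of single genes under an alternative, 539 kept direction and side of the threshold and 26 changed sign, and 9 of the 21 genes never did.

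The sign changes without the B-cell-high aortas were Cybb at -0.017, Gpx1 at 0.073, Fam3a at 0.091, Rac2 at -0.15, Ncf1 at -0.069 and Ncf4 at -0.15. With the adipocyte covariate they were Sod1 at 0.13, Sod2 at 0.026, Gpx1 at 0.19, Gpx3 at 0.051, Gpx4 at 0.33, Prdx3 at 0.033 and Fam3a at 0.15. The brown adipocyte covariate gave Gpx1 at 0.10, Gpx4 at 0.11 and Fam3a at 0.044, the macrophage covariate Fam3a at 0.00366, and the smooth muscle covariate Sod3 at -0.019. Leaving out each aorta gave -0.28 to 0.028 for Gpx1 and -0.10 to 0.043 for Fam3a. Their causes were not tested.

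Replicate numbers did not pair the aortas: the correlation of same-numbered aortas was over 0.1 in 3 of 6 pairs (-0.33 to 0.45), and 1 of 6 correlated best with its own number. With the replicate block 0 members were called and Fam3a was at 0.035. No aorta exceeded 10 times the median of cardiac muscle markers, so that alternative gave no value. With 6 and 7 aortas the intervals of the members reach from a log2 fold change of -1.21 to 1.56.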
